A study of Mus musculus with 17 samples.

Results

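Glu4 is 1 of 15 glutamatergic neuron clusters that the authors named in a single-cell survey of the mouse hypothalamus. Its cells were taken by the deposited cluster name alone. They number 131, or 0.907% of all annotated cells, of which 14306 lie outside the cluster. Among 906 Glu cells the other 14 Glu clusters hold 775. Transcripts were counted by Drop-seq, in which each cell meets a barcoded bead in a droplet and every captured polyA molecule receives its own molecular identifier (UMI). The hypothalamus was dissected and dissociated from 3 mice deprived of food for 24 hours and from 5 normally fed mice, all B6D2F1 hybrids (a C57BL6 mother and a DBA2 father), whose age was not given in the sources used here. The labels place 17 libraries in 5 batches. Food-deprived mouse 1 and normal mouse 3 share batch 1, food-deprived mouse 2 and normal mouse 4 share batch 2, and normal mice 1 and 2 share batch 0. Food-deprived mouse 3 is alone in batch 4 and normal mouse 5 in batch 3.

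Glutamatergic neurons load glutamate into synaptic vesicles with vesicular glutamate transporters, and Slc17a6 encodes the transporter VGLUT2 used by most excitatory neurons of the hypothalamus and thalamus. Hypothalamic neurons are usually told apart by their neuropeptides and by transcription factors such as Nkx2-1, Foxb1, Sim1 and Nr5a1, which pattern that region. Neurons of the thalamus, which borders the hypothalamus above, carry a different set of patterning factors, among them Tcf7l2, Gbx2, Lef1 and Rora.

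The Glu4 cells held 854862 UMIs, between 804 and 34672 per cell. The median Glu4 cell held 4111 UMIs, against 4077 in the other Glu cells. Mice with at least 10 Glu4 cells entered the comparisons of levels by mouse, and these were food-deprived mice 1 and 2 and normal mice 3 and 4, with 128 Glu4 and 465 other Glu cells. Levels are CPM, UMIs scaled to a total of 1000000 over the UMIs summed over a mouse's Glu4 or other Glu cells. In 9 of the 17 libraries Gapdh stood at 4.36 to 8.45 CPM over all cells, against 149 to 812 CPM in the other 8, and 106 of the 131 Glu4 cells came from the 9. Normal mouse 4 stood apart. Its 13 Glu4 cells had a median of 2343 UMIs, against 7201 in its other Glu cells, and the 45 oxidative phosphorylation genes summed to 13615 CPM in them, against 32277, 29046 and 34934 CPM in the Glu4 cells of food-deprived mice 1 and 2 and normal mouse 3. In all, 3 Glu4 barcodes match another Glu4 barcode of the same library after 1 base is dropped, and 1 Glu4 cell shares its barcode with a cell of another library.

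The glutamatergic label held in the counts. Slc17a6 had a UMI in 117 of 131 Glu4 cells and in 621 of 775 other Glu cells, against 19 of 724 cells of the Micro cluster, which should lack it and whose median cell held 1541 UMIs. Thinned to 1000 UMIs per cell, the shares were 56.4% of 117 Glu4 cells, 45.7% of 715 other Glu cells and 1.94% of 620 Micro cells. Its level in Glu4 was 1121 and 882 CPM in food-deprived mice 1 and 2 and 560 and 1192 CPM in normal mice 3 and 4. In the other Glu cells of the same mice it was 594, 562, 676 and 525 CPM. Glu4 was thus above the other Glu cells in 3 of 4 mice, and only Glu3 and Glu5 of the 15 Glu clusters were above it. The GABA synthesis genes Gad1 and Gad2 and the vesicular GABA transporter Slc32a1 had a UMI in 4, 9 and 3 Glu4 cells, or 3.05%, 6.87% and 2.29%, against 4.42%, 8.29% and 3.18% of Micro cells. All 3 of these shares, taken without thinning, are below those of Micro cells. Thinned to 1000 UMIs per cell, they were 1.71%, 2.56% and 0.855% in Glu4, against 1.45%, 6.77% and 1.94% in Micro cells. Gad1 was thus not below Micro at equal depth. The 3 genes are read as background, though the largest Gad2 count in a Glu4 cell was 11 of 25 UMIs. The neuronal membrane protein gene Snap25 had a UMI in 122 Glu4 cells.

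The cluster was set apart by transcription factors. The comparison of Glu4 with the other Glu cells is a description, with no test, because the clusters were made from these counts. Its fold is the log2 ratio after adding 1 CPM, averaged over the 4 mice with its SD. Tcf7l2, an HMG-box factor that binds β-catenin and carries Wnt signals to the genome, stood at 1137 and 1152 CPM in Glu4 of food-deprived mice 1 and 2 and at 1059 and 1297 CPM in normal mice 3 and 4. In the other Glu cells it was 15.1, 16.03, 11.2 and 9.31 CPM in the same mice, a log2 ratio of 6.41 ± 0.41. The 4 Glu4 values lie close together and far above all of the other Glu values.

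Shox2, a homeobox factor known for its role in limb growth and the heart's pacemaker, was not detected in the other Glu cells. It measured 367 and 346 CPM in Glu4 of food-deprived mice 1 and 2 and 252 and 315 CPM in normal mice 3 and 4, against 0 UMIs in the 465 other Glu cells of these mice. Taking 3 counts over that whole group as the limit a count of 0 allows, Shox2 was at least 339-fold higher in Glu4. By cells, 82 of 131 Glu4 cells held a Shox2 UMI, and 79 of these also held Tcf7l2. None of 775 other Glu cells did, which allows a share of up to 0.387% of cells with a UMI. Outside Glu4 and the cells with no cluster name, 22 of 11958 cells had a Shox2 UMI.

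Gbx2, a homeobox factor of the developing thalamus, measured 141 and 122 CPM in Glu4 of the food-deprived mice and 30.3 and 123 CPM in the normal mice, against 0, 4.01, 0 and 0 CPM in their other Glu cells. Lef1, the close relative of Tcf7l2, measured 44.3 and 46.6 CPM in the food-deprived mice and 101 and 193 CPM in the normal mice, against 1.08, 0, 0 and 0 CPM. Over all cells of a cluster, Lef1 stood at 67.8 CPM in Glu4. It was higher in the Epith1 cluster, at 334 CPM, and in GABA7, at 129 CPM with a UMI in 7 of 17 cells. Its level thus sets Glu4 apart among the Glu clusters, but not among all neurons or all cells.

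Because both Tcf7l2 and Lef1 lead the cluster, the 250 bases before the start of its leading genes were searched for the letters their proteins bind. RefSeq start windows of build GRCm38.p6 were at hand for 20 of the 25 leading genes defined below. The motif CTTTGAA or CTTTGAT, on either strand, was found in 1 of these 20 genes (1700019D03Rik), against 8.63% of all 27025 genes with a window. Its core CTTTG, which every full motif contains, was found in 12 of the 20, against 52.2% of all genes. The windows of Shox2 (chr3:66981772-66982021, minus strand), Tcf7l2 (chr19:55741560-55741809, plus strand, the first of 2 starts) and Prkcd (chr14:30626209-30626458, minus strand, the first of 2 starts) are shown because these 3 genes have the highest ratios, with the core in capitals on either strand.
Shox2: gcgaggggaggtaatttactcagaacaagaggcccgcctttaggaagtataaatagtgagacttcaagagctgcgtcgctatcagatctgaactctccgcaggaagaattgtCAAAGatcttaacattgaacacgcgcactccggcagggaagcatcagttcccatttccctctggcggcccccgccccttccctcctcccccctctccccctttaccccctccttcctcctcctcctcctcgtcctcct
Tcf7l2: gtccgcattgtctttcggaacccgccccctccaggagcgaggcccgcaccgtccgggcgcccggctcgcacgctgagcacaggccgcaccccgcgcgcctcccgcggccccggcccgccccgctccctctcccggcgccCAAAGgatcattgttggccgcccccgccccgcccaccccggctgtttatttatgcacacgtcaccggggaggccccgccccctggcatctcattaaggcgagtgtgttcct
Prkcd: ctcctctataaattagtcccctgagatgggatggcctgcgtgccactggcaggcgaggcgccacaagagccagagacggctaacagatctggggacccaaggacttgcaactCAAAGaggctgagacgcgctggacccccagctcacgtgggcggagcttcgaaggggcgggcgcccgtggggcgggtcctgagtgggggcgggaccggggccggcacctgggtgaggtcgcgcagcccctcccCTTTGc

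The 25 leading genes, those with the largest ratio at 50 CPM or more in Glu4 and a ratio above 0 in all 4 mice, ran from Shox2 at 8.31 to Mgll at 3.26. They comprise the transcription factors Shox2, Tcf7l2, Lef1 and Gbx2, the Wnt ligand Wnt3, which stood at 77.7 ± 34.5 CPM against 2.83 ± 1.11 CPM (SD, n = 4 mice), and the Wnt pathway inhibitor Nkd1. They also hold kinases (Prkcd, the δ type of protein kinase C, and Prkch), the receptor accessory protein Ramp3, the δ subunit of the GABA-A receptor Gabrd, the nicotinic receptor subunit Chrna4, the calcium-activated adenylyl cyclase Adcy1, the axon adhesion protein Ntng1, the peptide precursor Cck and the endocannabinoid lipase Mgll. The others are Tnnt1, Plekhg1, Ptpn3, Abhd12b, Vav3, Rassf3, Nexn, 6330403A02Rik, Rell1 and 1700019D03Rik. With all cells of a cluster summed, 24 of the 25 were highest in Glu4 among the 15 Glu clusters, the exception being Adcy1, and 16 were highest in Glu4 among all 47 groups of cells, the unnamed remainder included. Wnt3 and Nkd1 are not among these 16. Wnt3 stood at 77.3 CPM in the MO cluster, against 64.3 CPM in Glu4. Nkd1 stood at 243 CPM in Epith1 and 160 CPM in Epith2, against 56.1 CPM in Glu4.

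**Figure D1:**
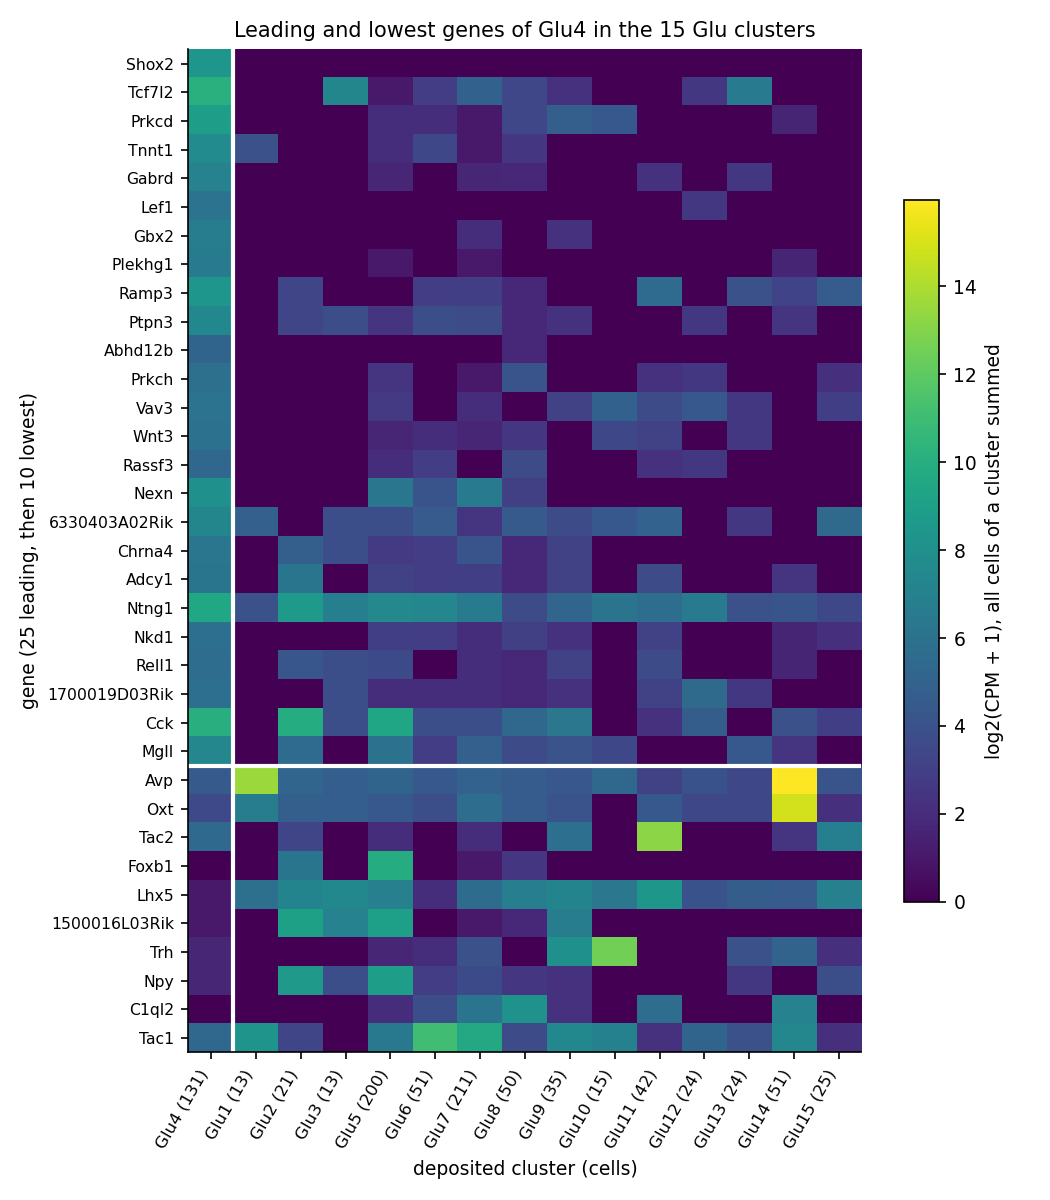
Heat map of log2(CPM + 1) with the UMIs of all cells of a cluster summed, for the 25 leading and 10 lowest genes of Glu4 (rows) in the 15 Glu clusters (columns, cells in brackets, Glu4 first). Shox2 is 0 in the 14 other clusters, Tcf7l2 also reaches 158 CPM in Glu3 and 89.0 CPM in Glu13, and the lowest genes of Glu4 include Avp and Oxt, which peak in Glu14.

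Of 8063 genes at 20 CPM or more in Glu4 or the other Glu cells, 568 (7.04%) were at least 2-fold higher in Glu4 on average and higher in 4 of 4 mice, and 535 (6.64%) were lower by the same rule. The median log2 ratio of these genes was -0.07. The list counts that follow use this rule and are given beside these shares as a description.

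Factors that pattern brain regions differed between Glu4 and the pooled other Glu cells in both directions. Of 46 such genes at 20 CPM, 14 were higher and 18 lower. Beside those above, Rora, a nuclear receptor of thalamic and cerebellar neurons, measured 122 ± 30.6 CPM in Glu4 and 12.4 ± 4.12 CPM in other Glu cells (SD, n = 4 mice each). The forkhead factors Foxp1 and Foxp2 measured 361 ± 109 and 144 ± 34.0 CPM in Glu4, against 52.7 ± 15.8 and 23.6 ± 17.4 CPM in the other Glu cells, with log2 ratios of 2.73 and 2.87. Zic1, Zic2 and Zic4, zinc finger factors of the dorsal neural tube, had ratios of 2.36, 1.90 and 1.74. With all cells of a cluster summed, Rora, Foxp1 and Zic1 were highest in Glu4 among the Glu clusters, but not among all clusters. Rora stood at 273 CPM in GABA8, against 118 CPM in Glu4. Zic1 stood at 332 CPM in GABA8 and 300 CPM in GABA6, against 230 CPM. Foxp2 stood at 135.5 CPM in Glu6, 201 CPM in GABA3 and 164 CPM in GABA7, against 134.5 CPM.

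Several factors of the hypothalamus were at or near 0, though most of them were so in many of the other Glu clusters too. Nkx2-1, which specifies the ventral hypothalamus, measured 4.03 and 0 CPM in Glu4 of the food-deprived mice and 0 and 0 CPM in the normal mice, against 82.9, 60.1, 75.8 and 24.2 CPM in their other Glu cells. Foxb1, a forkhead factor of the mammillary body, had no UMI in the 128 Glu4 cells and stood at 148 ± 111 CPM in the other Glu cells. Lhx5, Lhx1, Fezf1, Sim1 and Six3, which mark other hypothalamic domains, were likewise in the lower group. By cluster, Foxb1 and Fezf1 were at 0 in 11 of the 15 Glu clusters, Sim1 and Lhx1 in 9 and Nkx2-1 and Six3 in 7. Six3 peaked at 168 CPM in Glu13. Glu4, at 4.68 CPM of Six3, ranked 7 of 15, above the median of 1.05 CPM in the others. Lhx5 was at 0 in none, and Glu4, at 1.17 CPM, was the lowest of the 15, against a median of 97.3 CPM in the others. Lhx9, a LIM homeobox factor, measured 125 and 69.8 CPM in Glu4 of the food-deprived mice and 90.8 and 17.5 CPM in the normal mice, against 29.1, 40.1, 25.3 and 31.7 CPM in their other Glu cells. Of a list of 15 genes known from neurons outside the hypothalamus, 9 reached 20 CPM, and Tcf7l2, Prkcd, Gbx2, Ntng1, Rora and Prox1 were higher in Glu4 and Nptx1 was lower. The list summed to 3942 ± 57.3 CPM in Glu4 and 650 ± 174 CPM in other Glu cells. Its cortical members Neurod6 and Neurod2 were at 0 in Glu4 and Tbr1 at 1.99 CPM, while Slc17a7, the main cortical vesicular glutamate transporter, measured 17.7 ± 6.06 CPM. Whether tissue bordering the hypothalamus entered the dissection was not tested.

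**Figure D2:**
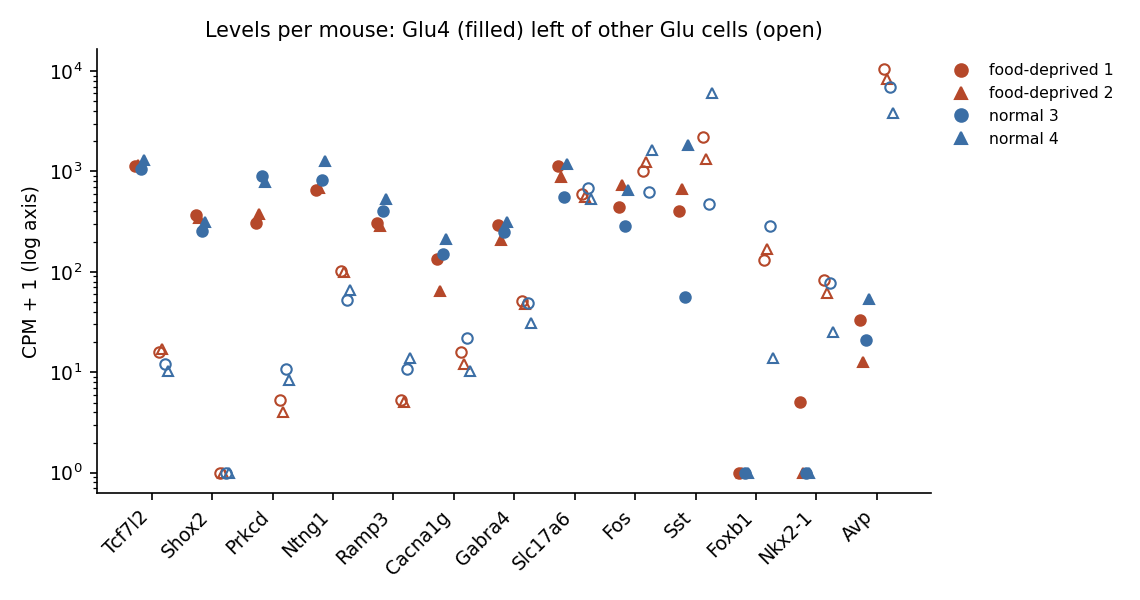
CPM + 1 on a log axis in each of the 4 mice, Glu4 as filled symbols left of the other Glu cells as open symbols, with food-deprived mice in red and normal mice in blue. The filled and open symbols do not overlap for Tcf7l2, Shox2, Prkcd, Ntng1, Ramp3, Cacna1g, Gabra4, Foxb1, Nkx2-1 and Avp, and they overlap for Slc17a6, Fos and Sst.

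Neuropeptide precursors, the genes by which hypothalamic neurons are usually classed, were mostly lower in Glu4 than in the other Glu cells pooled. Of 33 at 20 CPM, 18 were lower and 4 higher, and the 55 genes of the list summed to 3512 ± 452 CPM in Glu4 and 19345 ± 4423 CPM in other Glu cells (SD, n = 4 mice each). Avp, the vasopressin precursor, measured 32.3 and 11.6 CPM in Glu4 of the food-deprived mice and 20.2 and 52.6 CPM in the normal mice, against 10375, 8361, 6900 and 3805 CPM in their other Glu cells. Other genes in the lower group were Oxt (oxytocin), Tac1 and Tac2 (tachykinins), Trh (thyrotropin-releasing hormone), Npy, Hcrt (orexin), Pomc, Cartpt, Kiss1, Crh and Gal. Oxt measured 16.1 ± 16.8 CPM in Glu4, against 2524 ± 3696 CPM in other Glu cells, and 110 CPM over all cells of the Tany cluster of tanycytes, which should lack it.

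For Avp, Tac2 and Trh the difference rests on a few peak clusters among the others, and most Glu clusters share the low levels. Hcrt, Pomc, Cartpt, Kiss1, Crh and Gal were not compared by cluster here. Avp peaked at 63971 CPM in Glu14, with 11852 CPM in Glu1. Tac2 peaked at 9250 CPM in Glu11 and Trh at 6007 CPM in Glu10. The medians of the 14 other clusters were 25.4, 1.66 and 2.77 CPM, against 22.2, 43.3 and 2.34 CPM in Glu4. The Tac2 level of Glu4 comes from 37 UMIs in 1 cell. By cluster Glu4 ranked 9 of 15 for Avp, 8 for Tac1 and Trh, 4 for Tac2 and 10 for Npy.

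The peptide genes that were higher in Glu4 than in the pooled other Glu cells were Cck, Cbln2, Nxph1 and Igf1. Cck, the precursor of cholecystokinin, measured 964 and 1083 CPM in Glu4 of the food-deprived mice and 1276 and 718 CPM in the normal mice, against 225, 139, 343 and 7.45 CPM in their other Glu cells. Cbln2, a secreted organiser of synapses that binds neurexins, measured 327 ± 211 CPM against 59.6 ± 15.6 CPM. By cluster, other Glu clusters share these genes. Cck stood at 1059 CPM in Glu4, 927 CPM in Glu2 and 656 CPM in Glu5. It had a UMI in 75 of 131 Glu4 and 127 of 200 Glu5 cells. Cbln2 was higher in Glu10, at 271 CPM against 256 CPM in Glu4, and Nxph1 in Glu6, at 139 CPM against 97.1 CPM. Sst, the somatostatin precursor, varied widely in Glu4 and measured 403 and 661 CPM in the food-deprived mice and 55.5 and 1840 CPM in the normal mice. The other Glu cells of the same mice held 2202, 1328, 475 and 5976 CPM, so normal mouse 3 was lowest and normal mouse 4 highest in both. That pooled level rests on Glu15, at 25363 CPM over all its cells, and by cluster Glu4, at 518 CPM, ranked 2 of the 15 Glu clusters. The Glu4 levels of Sst rest on few cells. Sst had a UMI in 16 of 131 Glu4 cells, and the largest count in a cell was 109 of 443 UMIs. Among the deeper cells of normal mouse 4, thinned to equal depth, a cell of 15243 UMIs held 24 Sst UMIs and the others held none. Whether the shared order of the mice goes beyond such single cells was not tested.

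Genes of excitability were higher in Glu4 in several families. Of 21 potassium channel genes at 20 CPM, 10 were higher and 2 lower, with a list median of 1.26. Kcnc2, a fast Kv3 channel, measured 189 ± 132 CPM in Glu4 and 27.3 ± 6.73 CPM in other Glu cells. Kcnd2, Kcna1, Kcna2 and the large-conductance channel Kcnma1 were also in the higher group, and Kcnk2 and the channel partner Kcnip1 in the lower group. Of 20 sodium, calcium and HCN channel genes, 7 were higher and 3 lower.

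Cacna1g, the T-type calcium channel subunit that supports burst firing in thalamic relay neurons, measured 133 and 64.0 CPM in Glu4 of the food-deprived mice and 151 and 210 CPM in the normal mice. The other Glu cells held 15.1, 11.02, 21.1 and 9.31 CPM, so the ranges do not overlap, and over all clusters Cacna1g was highest in Glu4. The pacemaker channel Hcn2 had a log2 ratio of 2.21 but spread from 12.1 and 23.3 CPM in the food-deprived mice to 55.5 and 140 CPM in the normal mice.

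Receptors followed the same direction. Of 15 GABA and glycine receptor genes, 6 were higher and 1 lower. Gabrd and Gabra4, subunits of the extrasynaptic GABA-A receptor that carries tonic inhibition, had ratios of 6.11 and 2.58. Gabra4 measured 290 and 207 CPM in the food-deprived mice and 247 and 315 CPM in the normal mice, against 50.6, 47.1, 47.8 and 29.8 CPM in other Glu cells. Of 9 receptors for monoamines and acetylcholine, 5 were higher and none lower. These were Chrna4, the adrenergic receptor Adra1b, the histamine receptor Hrh3, the serotonin receptor Htr2c and the muscarinic receptor Chrm2. Of 12 ionotropic glutamate receptor genes, Grin2c and Grin2b, both NMDA receptor subunits, were higher.

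Receptors by which hypothalamic neurons read hormones and energy state summed to 953 ± 244 CPM in Glu4 and 1095 ± 129 CPM in other Glu cells (SD, n = 4 mice each), and the ranges overlap. Of the 56 genes of this list, 16 reached 20 CPM in Glu4 or the other Glu cells, and 6 of these were lower in Glu4. The prolactin receptor Prlr measured 14.0 CPM on average against 109 CPM, and Ghr, Npy1r, Cnr1, Oprk1 and Pgr were also lower. Crhr1, a receptor for corticotropin-releasing hormone, was the one member that was higher, at 29.0 ± 28.3 CPM against 4.58 ± 0.752 CPM.

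Adhesion and guidance genes gave 13 higher and 7 lower of 45. Ntng1, or netrin-G1, which is known from thalamocortical axons, measured 657 and 690 CPM in Glu4 of the food-deprived mice and 817 and 1262 CPM in the normal mice, against 100, 98.2, 52.0 and 65.2 CPM in their other Glu cells. The presynaptic neurexin Nrxn3, the postsynaptic organiser Lrrtm1 and the ephrin receptors Epha4, Epha5, Epha7 and Epha8 were in the same group. Immediate early genes, which neurons induce on activity and on dissociation, went the other way, with 0 of 22 higher and 8 lower. Fos measured 439 and 725 CPM in Glu4 of the food-deprived mice and 288 and 648 CPM in the normal mice, below the 1003, 1246, 626 and 1641 CPM of the other Glu cells in each mouse.

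Across genes at 20 CPM in either cluster, the cluster most like Glu4 was Glu7 (Pearson r = 0.81 of log2 CPM over 7888 genes), followed by Glu5 (r = 0.80) and GABA5 (r = 0.79). These are correlations across genes, which are not independent, and larger clusters carry less counting noise. Tcf7l2 stood at 29.9 CPM in Glu7 and 1.11 CPM in Glu5.

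Within Glu4, Prkcd was found in a minority of cells. By UMIs of all cells summed, Prkcd was highest in Glu4 of all clusters, and the Micro cluster, with a Prkcd UMI in 226 of 724 cells, was next. To compare cells at one depth, the 66 Glu4 cells with at least 4000 UMIs were thinned to 4000, which leaves out 65 shallower ones. Of these 66, 21 held Prkcd, with 6.67 UMIs on average. Calb2, the calcium buffer calretinin, was found in 6 of the 21 and in 40 of the other 45, or 28.6% and 88.9% (exact 95% intervals 11.3 to 52.2% and 75.9 to 96.3%). Of the 6 cells with both, 5 came from food-deprived mouse 2, and in the other 3 mice Calb2 was found in 1 of 13 Prkcd cells and in 26 of 29 others. All 6 held 1 or 2 UMIs of Prkcd, and none of the 13 cells with 3 or more held Calb2. Cck was found in 20 of 21 and 18 of 45, and Ramp3 in 17 of 21 and 14 of 45. For these 3 genes the exact 95% intervals of both shares, which cover counting error over cells only, do not overlap.

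Pcp4, a calmodulin-binding protein, averaged 47.8 UMIs per 4000 in the Prkcd cells and 4.51 in the others. Cbln2 was found in 1 of 21 and 19 of 45, and the neurotensin precursor Nts in 0 of 21 and 8 of 45. For the genes that mark the whole cluster the intervals overlap. Tcf7l2 was found in 21 of 21 and 43 of 45, with 5.29 and 4.56 UMIs on average, Slc17a6 in 20 of 21 and 42 of 45, and Shox2 in 12 of 21 and 34 of 45. The 21 cells came from all 4 mice, with 5 of 21 and 8 of 24 deep cells in food-deprived mice 1 and 2 and 6 of 17 and 2 of 4 in normal mice 3 and 4.

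**Figure D3:**
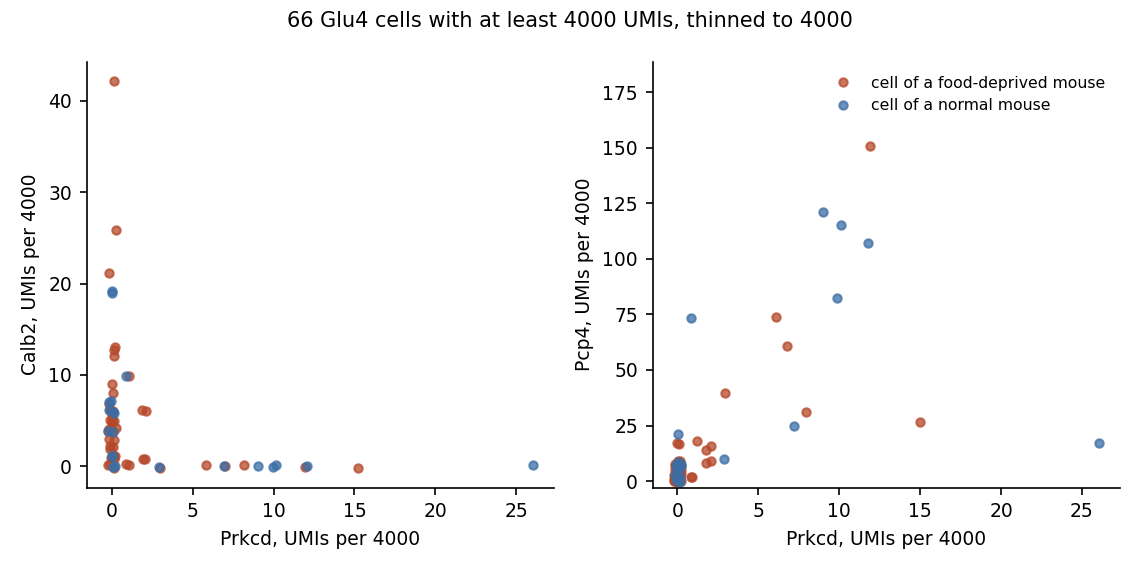
UMIs of Calb2 (left) and Pcp4 (right) against UMIs of Prkcd in the 66 Glu4 cells with at least 4000 UMIs, all thinned to 4000, with a little jitter, coloured by the feeding state of the mouse. Most cells lie along an axis of Calb2 with Prkcd at 0 or of Prkcd with Calb2 near 0, and the Prkcd cells average 47.8 Pcp4 UMIs, against 4.51 in the others.

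The spread among Glu4 cells over all genes was led by abundant transcripts. In 117 cells thinned to 1000 UMIs, 1093 genes had a UMI in at least 20 cells, and their median variance over mean was 1.15. The 15 largest included Meg3 at 27.1, Pcp4 at 12.9, Snhg11 at 11.5, Malat1 at 10.01, Atp2b1 at 6.51, App, Scg2, Cpe, Atp1b1, Atp6ap2, Ahi1, Nell2, Rn45s and Fos. Meg3, Snhg11 and Malat1 are long noncoding RNAs, and Rn45s is ribosomal precursor RNA. Calb2 stood at 2.83, while Tcf7l2 and Shox2 were at 1.53 and 1.37.

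Oligodendrocyte RNA was concentrated in 3 Glu4 cells. A list of 7 myelinating oligodendrocyte genes, among them Mbp, Mog, Mobp and Mag, took a median of 0.0554% of a Glu4 cell's UMIs, against 0.0336% in other Glu cells and 10.9% in the MO cluster of myelinating oligodendrocytes. They took 2.88% in a cell of food-deprived mouse 2 and 1.90% and 1.42% in 2 cells of food-deprived mouse 1, and the next cell held 0.487%. The 3 cells hold 1195 of the 1586 UMIs of these genes in the 128 Glu4 cells (75.3%). They also held 29, 4 and 15 UMIs of Slc17a6, 1, 1 and 12 of Shox2 and 16, 6 and 40 of Tcf7l2. Tcf7l2 is not particular to neurons, since the oligodendrocyte cluster IMO was second to Glu4, at 433 CPM over all its cells and with a UMI in 82 of 151.

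At the 2% threshold, 0 of 43 and 1 of 45 Glu4 cells of food-deprived mice 1 and 2 and 0 of 27 and 0 of 13 of normal mice 3 and 4 were counted, or 0.763% of all 131 (exact 95% interval 0.0193 to 4.18%). An exact two-sided permutation test between the groups gave p = 1.00 (n = 2 mice each). Only 1 mouse had a counted cell, so every split of the mice gives a difference of the same size. This p was thus fixed and cannot tell whether the groups differ. With other values the smallest p possible is 0.333. At 1%, which takes in all 3 cells, 2 of 43 and 1 of 45 cells of food-deprived mice 1 and 2 were counted and 0 of 27 and 0 of 13 of normal mice 3 and 4, with p = 0.333 by the same exact permutation test, and at 5% none were. In other Glu cells 4 of 775 passed 2%, or 0.516%.

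Glu4 was found almost wholly in the mice of batches 1 and 2. Glu4 made up 43 of 181, 45 of 186 and 0 of 120 Glu cells in food-deprived mice 1 to 3, or 23.8%, 24.2% and 0%. It made up 27 of 154, 13 of 72 and 3 of 179 in normal mice 3 to 5, or 17.5%, 18.1% and 1.68%, and 0 of 7 in each of normal mice 1 and 2. These batches hold 128 of the 131 cells. The count of 0 in food-deprived mouse 3 allows a share of up to 2.50%.

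The mean share was 15.98 ± 13.8% in the food-deprived mice and 12.4 ± 9.31% in the normal mice with at least 20 Glu cells (SD, n = 3 each; exact two-sided permutation test, p = 0.600, the smallest possible being 0.100). Leaving out food-deprived mouse 1, food-deprived mouse 2 or normal mouse 5 turned the difference of 3.56 percentage points to -0.32, -0.54 and -1.81, and leaving out food-deprived mouse 3 moved it to 11.6. Within batches 1 and 2 the food-deprived mouse held 6.22 and 6.14 points more than the normal mouse, and an exact sign-flip permutation test of 2 pairs cannot go below p = 0.500. Fewer cells of a type and a lower recovery from the tissue cannot be told apart here. In the 3 libraries of batches 1 and 2 with retained Gapdh, 2 of 15 and 13 of 53 Glu cells of food-deprived mice 1 and 2 and 7 of 38 of normal mouse 4 were Glu4. All libraries of batches 0, 3 and 4 are of the retained kind as well. The 3 Glu4 cells of normal mouse 5 held 0, 7 and 1 UMIs of Tcf7l2 and 2, 0 and 0 of Shox2.

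**Figure D4:**
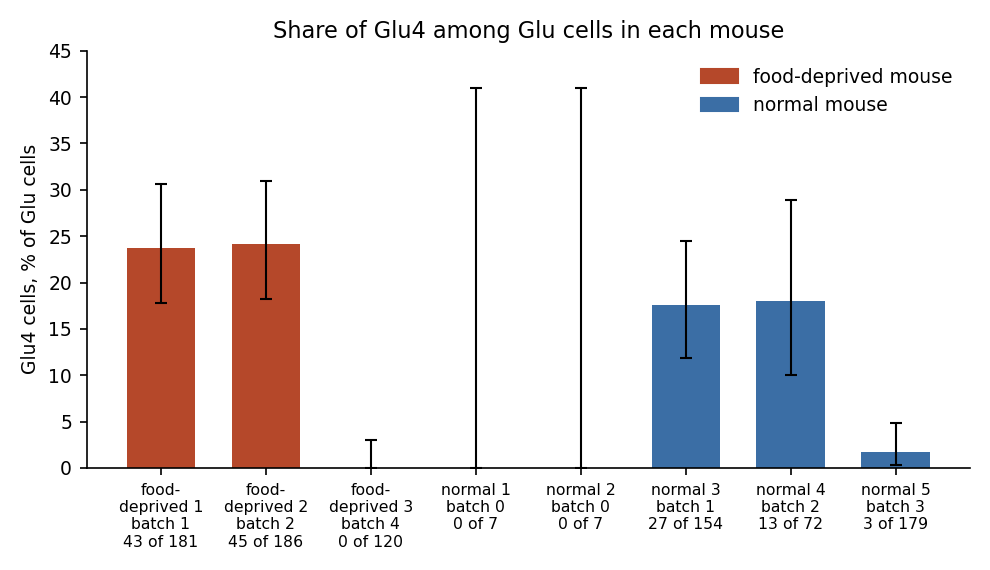
Glu4 cells as a percentage of Glu cells in each mouse, food-deprived mice in red on the left and normal mice in blue on the right, with exact 95% binomial intervals and the cell counts and batch under each bar. The 4 mice of batches 1 and 2 lie between 17.5% and 24.2%, and the others with at least 20 Glu cells at 0% and 1.68%.

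No gene passed the test of food-deprived against normal within Glu4. The quasi-likelihood F test of edgeR over 4 mice, with Benjamini-Hochberg adjustment, tested 4986 genes and called 0 of them (0% of the genes tested) at an adjusted p of 0.05, while 247 had an unadjusted p under 0.05. DESeq2 called 1. The count was 3 without food-deprived mouse 1, 3 without food-deprived mouse 2, 95 without normal mouse 3 and 32 without normal mouse 4, so it rests on single mice. The response of Glu4 minus that of the other Glu cells was tested in 8114 genes, and again 0 (0%) were called, with 295 at an unadjusted p under 0.05 and 1 called by DESeq2.

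Among the 12 genes with the smallest p, 9 are genes of oligodendrocytes, among them Mal, Car2, Cldn11, Mog and Ermn, and all 9 had higher values in the food-deprived mice. Mal, a protein of the myelin membrane, measured 141 and 137 CPM in Glu4 of food-deprived mice 1 and 2, against 5.04 and 17.5 CPM in normal mice 3 and 4 (log2 fold change 4.03 ± 0.70 SE, edgeR adjusted p = 0.0877, with 0.00238 without normal mouse 4 and a range of 0.000574 to 0.877 over all alternatives). These values rest on 35, 47, 1 and 1 UMIs. Without normal mouse 4, all of the 12 except Opalin, Mag and Abhd12b passed the threshold, and without food-deprived mouse 1 or normal mouse 3 Car2 did. Without the 3 cells above, which all belong to the food-deprived mice, 8 of the 9, Mal among them, no longer passed the filter on low counts. All 7 myelinating oligodendrocyte genes had a positive fold change with a median of 2.70, against 0.03 for all genes tested. Their sum was 2383 and 2503 CPM in Glu4 of food-deprived mice 1 and 2, or 641 and 365 CPM without the 3 cells, which were chosen by this RNA, against 484 and 683 CPM in normal mice 3 and 4. Of the 7 only Mog was at 0 in both normal mice. With Mog at its bound of 2.88, from 3 counts over the normal mice, the median stays 2.70.

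The other 3 of the 12 had similar fold changes without those cells. Gpr116, an adhesion receptor, measured 12.1 and 23.3 CPM in the food-deprived mice and 202 and 123 CPM in the normal mice (log2 fold change -3.20 ± 0.53 SE, edgeR adjusted p = 0.0877, and -3.20 without the 3 cells, adjusted p = 0.176; over all alternatives the adjusted p ranged from 0.00015 with no filter on low counts to 0.358). These values rest on 3, 8, 40 and 7 UMIs. Abhd12b, a lipid hydrolase relative, measured 16.1 and 2.91 CPM against 90.8 and 105 CPM (adjusted p = 0.314), and the monoamine oxidase gene Maob 242 and 178 CPM against 40.4 and 17.5 CPM (adjusted p = 0.128). With no filter on low counts these adjusted p-values were 0.00454 and 0.00393. None of these 3 genes passed the threshold with the filter in place and all 4 mice.

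**Figure D5:**
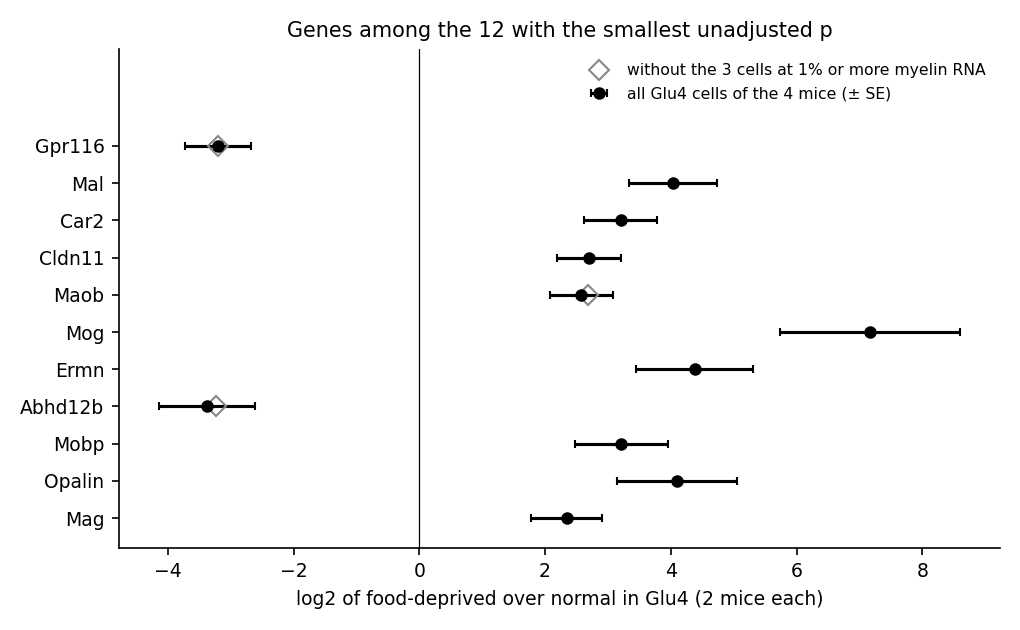
Log2 of food-deprived over normal in Glu4 for genes among the 12 with the smallest unadjusted p, with SE bars (black, 2 mice per group), and the same without the 3 cells rich in myelin RNA (open diamonds). A diamond is shown for each plotted gene that still passed the filter, and those of Gpr116, Maob and Abhd12b stay close to their first value. The value of Mog, which had no UMI in the normal mice, depends on the prior count of the fit.

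Nor did Prkcd pass the test. Prkcd measured 302 and 375 CPM in Glu4 of the food-deprived mice and 898 and 789 CPM in the normal mice (log2 fold change -1.31 ± 0.36 SE, edgeR adjusted p = 0.733). The share of cells with Prkcd moved with this level, at 8 of 43 and 15 of 45 Glu4 cells in the food-deprived mice and 12 of 27 and 6 of 13 in the normal mice, and its part in the result was not tested. Without normal mouse 4 the adjusted p was 0.00238, without normal mouse 3 it was 0.0650, and over all alternatives it reached up to 1.00. Calb2 measured 1463 and 1254 CPM against 908 and 280 CPM (adjusted p = 0.980, and 0.000846 without normal mouse 3). For the markers of the whole cluster the log2 fold change was -0.02 ± 0.34 SE in Tcf7l2, 0.37 ± 0.37 in Shox2 and 0.25 ± 0.40 in Slc17a6, and for Cck it was 0.01 ± 0.37.

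Lists linked to fasting had no called member in Glu4. Of 13 immediate early genes tested, 10 had positive fold changes, with a median of 0.42, and Fos was at 0.42 ± 0.44 SE (adjusted p = 0.980). Of 45 oxidative phosphorylation genes 43 were positive, with a median of 0.28. The sum of these genes, given above, was 32277 and 29046 CPM in food-deprived mice 1 and 2. It was higher in normal mouse 3, at 34934 CPM, and lower only in normal mouse 4, at 13615 CPM. The part of normal mouse 4 in the positive fold changes was not tested. The median was 0.53 for 8 glucocorticoid-induced genes and 0.37 for 3 FoxO and low-insulin genes, and -0.52 for 17 potassium channel genes and -0.48 for 11 ionotropic glutamate receptor genes. The whole potassium channel list summed to 1959 and 2346 CPM in food-deprived mice 1 and 2 and 2255 and 3767 CPM in normal mice 3 and 4. The whole ionotropic list summed to 1673, 1854, 2124 and 3102 CPM in the same order. Normal mouse 4 was highest in both lists, and its part in these medians was not tested. The median of all genes tested was 0.03.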

How the data were processed

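The authors deposited raw UMI counts per gene and barcode for each library, a merged count table and 1 cluster name per cell. The build is mm9, per the submitters' processing notes, and no source used here names the aligner or counter. Every annotated cell could be assigned to 1 library through its batch, state and barcode and its equal counts. No other filter and no doublet caller was applied. UMIs were summed per mouse, the replicate. Food-deprived was compared with normal by two-sided edgeR 4.0.16 tests (R 4.3.3, TMM, filterByExpr), with DESeq2 1.42.0 as an alternative, checked on simulated counts. Shares were compared by exact permutation. Batch pairs the mice, per the labels, and Glu4 deviations of same-batch mice correlated at 0.136 over 4986 genes. Intervals and floors cover counting error only, and precision is limited by 4 mice. Named genes were list members, the 25 highest and 10 lowest ratios, the 12 smallest p and the 15 largest spreads. Prkcd cells, Calb2 and the 1% myelin limit were chosen after their values were seen. A few genes are not reported here. Members and lists were chosen with earlier results of these data known.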

Additional observations from a re-analysis of the deposited data

Results flagged for a closer look

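Cells without a cluster name were not used in any comparison, and 10 of these 2348 cells held a Shox2 UMI, or 0.426% (exact 95% interval 0.204 to 0.782%). Of the 10, 4 also held Tcf7l2, and their median was 9212 UMIs. By mouse, 2, 1 and 2 came from food-deprived mice 1 to 3, and 3, 0 and 2 from normal mice 3 to 5. Among named clusters, the oligodendrocyte precursor cluster OPC held a Shox2 UMI in 8 of 1741 cells, and the interval of the unnamed cells includes that share. Thinned to 1000 UMIs, 0 of 2143 unnamed cells held one.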

How the results depend on the processing

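The count of 0 genes for food-deprived against normal in Glu4 also came from plain library totals, a minimum of 5 cells (the same 4 mice), batch as a replicate block, depleted libraries with batch as a replicate block (with 6 cells of normal mouse 4) and the fits without cells at 2% or, added after seeing the data, 1% myelin RNA. It was 1 with DESeq2, 20 with no filter on low counts, 32 with mice of at least 20 Glu4 cells, and 3 to 95 without each mouse in turn, where a lone mouse is assumed to vary like the others. For Glu4 minus other Glu it was 1 with DESeq2, 7 with no filter and 0 to 11 without each mouse, and 0 without cells at 2% or 1% myelin RNA. Of the 12 smallest p of the difference, Ctxn3 ranged from -4.95 to 2.99 and Tac2 from -8.77 to 2.15 without each mouse. Both reversed without normal replicate 3. All 37 Tac2 UMIs of Glu4 lay in 1 cell. Its Glu4 level was 187 CPM in normal mouse 3 and 0 CPM in food-deprived mice 1 and 2 and normal mouse 4. The cause of the reversals was not tested. The share difference of 3.56 points ranged from -1.81 to 11.6 without each mouse, was 6.18 within batches 1 and 2 (replicate block) and 1.61 points of all neurons. The log2 ratio of median UMIs per cell, Glu4 over other Glu, was -0.21 (exact two-sided sign-flip permutation p = 0.875, smallest 0.125, higher in 2 of 4 mice), -0.19 with means, and -0.44 to 0.26 without each mouse. The 35 leading and lowest genes were chosen for 1 sign in all 4 mice, so leaving out a mouse cannot turn it. Where it could turn, in depleted libraries, Avp averaged -5.71 ± 5.17 and Oxt -3.79 ± 6.95 (SD), each with that sign in 3 of 4 mice. The number of genes higher in Glu4 was 392 to 739 over all alternatives, and the number lower, 535, became 318 with a pseudocount of 10 CPM, 803 in depleted libraries and 437 to 734 without each mouse. The replicate block was run for food-deprived against normal in Glu4 and for the share, and changed no call there.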
